A study of Drosophila melanogaster with 2 samples.

Results

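The nuclear genes of the mitochondrial respiratory chain and ATP synthase were followed through chromatin immunoprecipitation and sequencing (ChIP-seq) peaks of the fly protein CG9817. Members were the protein-coding genes on the major chromosome arms of the Ensembl BDGP6 annotation whose name begins with ND-, UQCR-, COX and a digit, or ATPsyn, or is SdhA, SdhB, SdhC, SdhD, Cyt-c1 or RFeSP. This naming rule found 86 of 13945 coding genes, with 40 in complex I, 4 in complex II, 11 in complex III, 16 in complex IV and 15 in complex V, the ATP synthase. Of these, 21 carry a name ending in L, or L and a digit, that marks a duplicate of another subunit gene, as in COX4L for COX4.

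The samples were whole Drosophila melanogaster embryos aged 10 to 24 h, from a transgenic line with a stable C-terminal fusion of green fluorescent protein (GFP) to CG9817, the older name of the gene CG43347. Chromatin sheared to 200 to 800 bp was precipitated with an antibody against GFP. There was 1 group of 2 biological replicates, numbered 1 and 3, and no embryos without the tagged protein were analysed here, so no groups of samples were compared and a peak shared with untagged embryos could not be recognised. The embryos mix all tissues, so a peak does not show in which cells it arose. The data were 4 peak lists: 30000 peaks from each replicate, 30000 from both replicates pooled, and the 5038 pooled peaks that passed a threshold on the irreproducible discovery rate (IDR), a measure of how well replicates rank the same peak. Read totals were not used here, so the depth behind each list is unknown. A promoter peak had its summit, the highest point of the peak, at most 500 bp from a start site of transcription (TSS) annotated for the gene. Rank 1 is the peak with the highest signal in a list, on the authors' own scale.

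As background, complex I passes electrons from NADH, and complex II from succinate, to ubiquinone. Complex III passes them on to cytochrome c, complex IV passes them to oxygen, and complex V uses the proton gradient built by complexes I, III and IV to make ATP. A few subunits of complexes I, III, IV and V are encoded in mitochondrial DNA, so the nuclear genes have to be expressed together with the mitochondrial ones. Many fly respiratory genes have a duplicate that is expressed mainly in the testis.

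In the IDR-thresholded list, 21 of 86 members (24.4%, 95% Wilson interval 16.6% to 34.5%) had a promoter peak, against 3309 of 13945 coding genes, a percent called of 23.7. The members' share was close to this background. Intervals cover counting error over genes only, and genes are not replicates. Complex I held 11 of the members with a peak, ND-23, ND-24, ND-42, ND-51, ND-ASHI, ND-B17, ND-B18, ND-B22, ND-MNLL, ND-MWFE and ND-SGDH. Complex II held SdhC and complex III held UQCR-11. Complex IV held COX5A, COX5B, COX6B and COX7B, and complex V held ATPsynC, ATPsynCF6, ATPsynE and ATPsyngamma.

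The shares by complex were 27.5% of 40 genes in complex I (16.1% to 42.8%), 25% of 4 in complex II (4.56% to 69.9%), 9.09% of 11 in complex III (1.62% to 37.7%), 25% of 16 in complex IV (10.2% to 49.5%) and 26.7% of 15 in complex V (10.9% to 52.0%). Complex III had the lowest share, with UQCR-11 alone, but the 5 intervals overlapped and each included the background of 23.7%. With so few genes per complex, a difference between complexes was not detectable.

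None of the 21 duplicates had a promoter peak in the IDR-thresholded list (0%, upper bound 15.5%), against 21 of the 65 other members (32.3%, 22.2% to 44.4%). Those 2 intervals did not overlap. The duplicates made up 8 of the 16 genes of complex IV, so without them the complexes stood at 32.4% of 34 genes for I, 25% of 4 for II, 12.5% of 8 for III, 50% of 8 for IV and 36.4% of 11 for V. COX4L, COX5BL, COX6AL, COX6AL2, COX6CL, COX7AL, COX7AL2 and COX7CL were the duplicates of complex IV. The duplicates were also absent from the 5038 strongest peaks of either replicate, while 7 of 21 (33.3%, 17.2% to 54.6%) had a peak in at least 1 of the 4 lists. This was below the share of the other members (80%) and of all coding genes (61.3%) in those lists. Among the weaker peaks COX7AL2 ranked 24341 in the pooled list, 7719 in replicate 1 and 9801 in replicate 3. ATPsynCF6L ranked 26505 in replicate 1 and 29437 in replicate 3. For COX7AL2 the summit lay at 264 bp from the TSS in replicate 1 and at -384 bp in replicate 3. For ATPsynCF6L it lay at -342 and 446 bp, so neither gene had the same peak in both replicates. COX7AL2 differed from the other duplicates in another way, with 3 summits of the IDR-thresholded list inside the gene but over 500 bp from its start sites, at ranks 4034, 4487 and 4707.

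**Figure D1:**
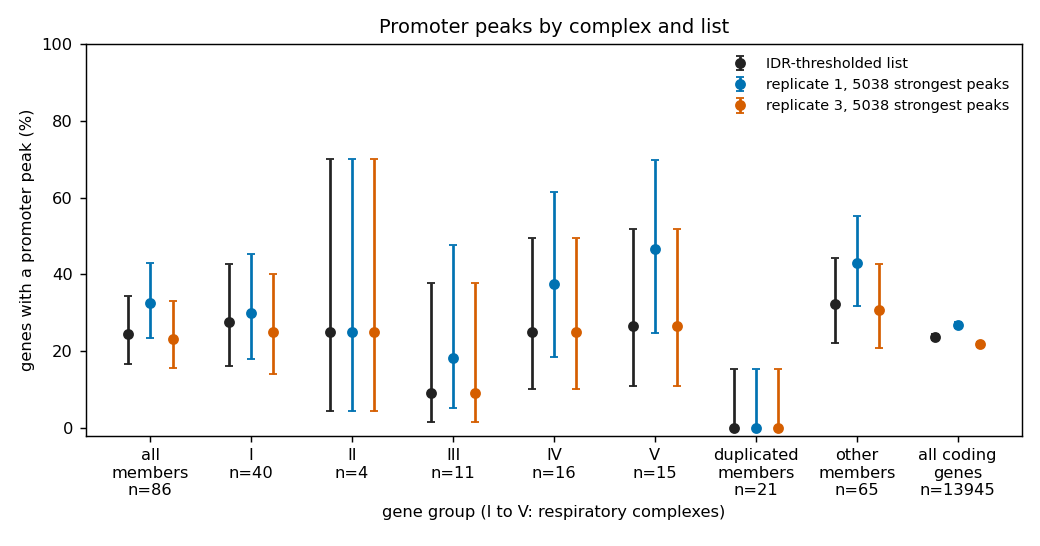
Percent of genes with a promoter peak for all members, each complex, duplicates, other members and all coding genes, in the IDR-thresholded list and among the 5038 strongest peaks of each replicate. Points are shares and bars are 95% Wilson intervals. The intervals of the 5 complexes overlap in each list, the 21 duplicates lie at 0%, and replicate 1 lies highest for complex V with 7 of 15 genes.

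The sequence at the summits is shown for 8 members, chosen by signal, each complex first, among summits outside exons (ND-MWFE, the strongest, lies on an arm whose sequence is not printed here), so that the DNA under the peaks of the 5 complexes can be read beside their values. The strands are those of the member, the sequence is from the RefSeq release 6 assembly (dm6), exonic bases are left out, and capitals mark the nuclear respiratory gene element, a motif described in fly promoters of nuclear genes for mitochondrial proteins, for which the letters TTACATAA, TTACGTAA, TTATATAA and TTATGTAA were searched on both strands. The positions are chrX:6679294-6679444 (minus strand) for ND-ASHI, chr3R:11209966-11210116 (minus strand) for SdhC, chr3L:25120551-25120701 (plus strand) for UQCR-11, chr3L:17425276-17425426 (plus strand) for COX7B, chr3R:23356176-23356277 (minus strand) for ATPsynCF6, chr2L:6062816-6062966 (minus strand) for ND-51, chr3L:12138585-12138732 (minus strand) for ND-SGDH and chr3R:22027481-22027596 (plus strand) for ND-42. The summit is base 76 of each run, base 27 in ATPsynCF6 and base 41 in ND-42.
ND-ASHI: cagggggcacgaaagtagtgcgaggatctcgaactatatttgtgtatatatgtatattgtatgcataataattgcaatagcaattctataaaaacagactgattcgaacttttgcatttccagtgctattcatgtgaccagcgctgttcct
SdhC: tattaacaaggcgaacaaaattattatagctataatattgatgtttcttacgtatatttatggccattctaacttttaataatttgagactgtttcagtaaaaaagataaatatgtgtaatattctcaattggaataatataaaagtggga
UQCR-11: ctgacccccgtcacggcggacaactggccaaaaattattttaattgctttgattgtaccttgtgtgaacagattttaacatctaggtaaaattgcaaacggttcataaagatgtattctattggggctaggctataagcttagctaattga
COX7B: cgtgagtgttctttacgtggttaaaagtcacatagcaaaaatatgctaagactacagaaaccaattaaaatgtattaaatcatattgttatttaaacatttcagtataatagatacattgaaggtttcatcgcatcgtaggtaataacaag
ATPsynCF6: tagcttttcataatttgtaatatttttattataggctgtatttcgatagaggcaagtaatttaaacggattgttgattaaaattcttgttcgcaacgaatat
ND-51: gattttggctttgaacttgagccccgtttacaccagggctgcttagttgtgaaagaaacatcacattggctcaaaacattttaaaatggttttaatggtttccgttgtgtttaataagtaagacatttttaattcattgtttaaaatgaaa
ND-SGDH: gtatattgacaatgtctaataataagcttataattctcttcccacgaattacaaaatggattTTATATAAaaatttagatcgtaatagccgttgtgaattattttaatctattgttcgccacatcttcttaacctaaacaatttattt
ND-42: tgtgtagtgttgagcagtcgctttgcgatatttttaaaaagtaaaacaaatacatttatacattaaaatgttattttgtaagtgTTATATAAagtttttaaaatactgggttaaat
These stretches were rich in A and T, with a GC content from 23.3% (ND-42) to 38.4% (UQCR-11), and a single capital match stood in ND-SGDH and in ND-42.

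ND-MWFE and ND-ASHI, both accessory subunits of complex I, carried the strongest peaks of all members. The ND-MWFE peak (arm 2R, 13158353 to 13158667, dm6) had a signal of 1221 and ranked 204 in the IDR-thresholded list, 153 in replicate 1 and 272 in replicate 3. The ND-ASHI peak (arm X, 6679242 to 6679506) had a signal of 1152 and ranked 231, 302 in replicate 1 and 216 in replicate 3. These were the members with a peak among the strongest 500, 2 of 21 (9.52%) against 502 of 3309 coding genes with a peak (15.2%). Across the 21 members the median rank was 1679 (quartiles 891 and 3028, range 204 to 4631), against 1888 (832 and 3253) over all coding genes with a peak. The members' peaks were thus of ordinary strength, and 13 of 21 (61.9%) lay among the 2519 strongest peaks, against 62.3% of all coding genes with a peak.

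The core of complex I includes the subunits that bind NADH, flavin, the iron-sulfur clusters and the quinone. Of its nuclear genes ND-75, ND-51, ND-49, ND-30, ND-24, ND-23 and ND-20, a grouping made after the values were seen, 3 of 7 had a peak, against 8 of 33 other genes of complex I, or 8 of 27 without duplicates. ND-51, the subunit where NADH is oxidised, had a peak at 6062747 to 6063003 on arm 2L, with ranks of 638 in the IDR-thresholded list, 529 in replicate 1 and 907 in replicate 3. ND-24, its iron-sulfur partner in the NADH-binding module, had a peak at 17632151 to 17632265 on arm X that ranked 1369, 1565 in replicate 1 and 1286 in replicate 3. These subunits of the same module sat on different arms and both replicates listed both peaks. ND-23, which carries iron-sulfur clusters near the quinone site, had a weaker peak at 15837035 to 15837384 on arm 3R, with ranks of 2536, 1899 in replicate 1 and 3508 in replicate 3. ND-20, which carries the last cluster before the quinone, ranked 4296 in replicate 1 and was in no other list. ND-75, ND-30 and ND-49 had no peak in the IDR-thresholded list.

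Among the accessory subunits of complex I, ND-SGDH on arm 3L (12138522 to 12138785) ranked 869, 907 in replicate 1 and 899 in replicate 3. ND-42 on arm 3R (22027345 to 22027747) ranked 891, 635 in replicate 1 and 1284 in replicate 3. ND-MNLL on arm X (7893758 to 7894107) ranked 1891, 1526 in replicate 1 and 2267 in replicate 3. In these 3 genes both replicates placed the peak well inside their strongest 5038. The peaks of ND-B22, ND-B17 and ND-B18 were the weakest of complex I, at ranks 3028, 3864 and 4631. ND-B18, the weakest of all members (arm X, 15063713 to 15064062, signal 141), ranked 5855 in replicate 1 and 4342 in replicate 3, and ND-B17 ranked 2749 in replicate 1 and 5809 in replicate 3. Each of those 2 genes was thus outside the strongest 5038 peaks of 1 replicate, and the other 19 members were inside in both.

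In complex II, which doubles as succinate dehydrogenase of the citric acid cycle, SdhC was the member with a peak in the IDR-thresholded list. SdhC encodes a membrane anchor, and its peak (arm 3R, 11209866 to 11210215, signal 215) ranked 3004, 2506 in replicate 1 and 3224 in replicate 3. The iron-sulfur subunit SdhB had a weaker peak in each full list, with ranks of 6193 in the pooled list, 5378 in replicate 1 and 7627 in replicate 3. The other anchor, SdhD, ranked 14829, 19594 in replicate 1 and 16750 in replicate 3. The flavoprotein subunit SdhA appeared in replicate 1 alone, at rank 23381. The replicates gave the same order of the 3 genes they both listed, SdhC before SdhB before SdhD.

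In complex III, UQCR-11, a small subunit, had a peak on arm 3L (25120451 to 25120800, signal 157) that ranked 4160, 4755 in replicate 1 and 4038 in replicate 3. The catalytic subunits encoded in the nucleus, Cyt-c1 and RFeSP, had weaker peaks in the pooled list and in replicate 3. In replicate 1 this held for Cyt-c1, while RFeSP ranked just ahead of UQCR-11. Cyt-c1, which donates electrons to cytochrome c, ranked 6437 in the pooled list, 6206 in replicate 1 and 9798 in replicate 3. RFeSP, the Rieske iron-sulfur protein, ranked 7132, 4663 in replicate 1 and 13991 in replicate 3. UQCR-6.4, another small subunit, ranked 11149, 10997 in replicate 1 and 9631 in replicate 3. In the full pooled list 7 of 11 genes of complex III had a promoter peak (63.6%, 35.4% to 84.8%), and this interval included the share of all coding genes in that list, 48.2%. UQCR-C1 was in none of the 4 lists.

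The peaks of complex IV lay close together in rank. COX7B (arm 3L, 17425258 to 17425474, signal 522) ranked 934, 585 in replicate 1 and 1569 in replicate 3. COX5B (arm 2L, 6557440 to 6557615) ranked 1403, 1112 in replicate 1 and 1698 in replicate 3. COX5A (arm 3R, 11819416 to 11819579) ranked 1455, 868 in replicate 1 and 2154 in replicate 3. All of these encode nuclear subunits that surround the catalytic core made in the mitochondrion. COX6B, another of these subunits (arm X, 19744308 to 19744473, signal 350), ranked 1679, 1189 in replicate 1 and 2105 in replicate 3. Each of the 4 genes thus ranked better in replicate 1. COX7C ranked 7714 in the pooled list, 4458 in replicate 1 and 16107 in replicate 3. Its strongest peaks differed, with the summit at 371 bp from the TSS in replicate 1 and at -145 bp in replicate 3.

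COX8 stood apart from the other members. It had a peak of rank 741 in replicate 1 (arm 3L, 21539424 to 21539639, signal 247), with its summit at -111 bp from the TSS, and none in replicate 3, the pooled list or the IDR-thresholded list. Of the 1000 strongest peaks, 5 in replicate 1 and 1 in replicate 3 overlapped no pooled peak. The COX8 peak was therefore a rare case by its strength, and it rests on a single library.

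In complex V, ATPsynE, a subunit of the membrane part, had the strongest peak (arm 3R, 14326832 to 14327118, signal 597), with ranks of 742, 614 in replicate 1 and 937 in replicate 3. ATPsynCF6, part of the stalk that holds the catalytic head, had a peak at 23356141 to 23356277 on arm 3R and ranked 1939, 1140 in replicate 1 and 2754 in replicate 3. ATPsynC, which forms the rotor ring in the membrane, had a peak at 31219651 to 31220000 on arm 3R and ranked 3087, 2611 in replicate 1 and 2840 in replicate 3. ATPsyngamma, the rotor shaft, had the weakest of these peaks (arm 3R, 29748795 to 29749144, signal 205), with ranks of 3179, 2309 in replicate 1 and 4157 in replicate 3. All 4 lay on arm 3R, in separate places, as did ATPsynD, ATPsynO and ATPsynepsilonL, which had no promoter peak in the IDR-thresholded list. The stalk genes ATPsynB and ATPsynO and the membrane subunit gene ATPsynF lay below the threshold, at pooled ranks of 5098, 6107 and 5191. In replicate 1 these ranked 3772, 3605 and 4517, and in replicate 3 they ranked 6580, 19310 and 7282. ATPsynbeta, the catalytic subunit, was in none of the 4 lists. ATPsynbeta and ND-49 lie on arm 4, where 1 of 80 coding genes had a promoter peak.

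**Figure D2:**
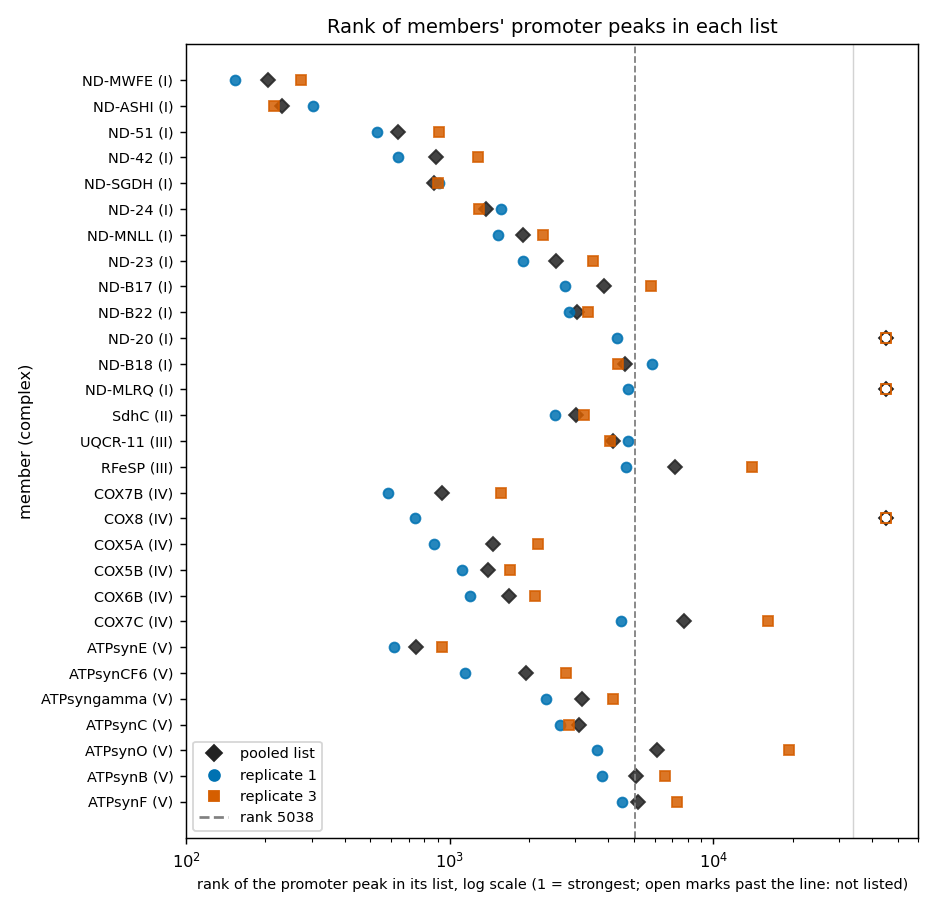
Rank of the promoter peak in the pooled list and in each replicate, on a log scale with 1 as the strongest, for every member with a peak in the IDR-thresholded list or among the 5038 strongest peaks of a replicate. Open marks past the line stand for genes that a list does not hold. ND-MWFE and ND-ASHI rank best in complex I, replicate 1 lies left of replicate 3 for most genes, and ND-20, ND-MLRQ and COX8 are listed in replicate 1 alone.

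The replicates differed in how many members they listed. Among the 5038 strongest peaks, replicate 1 covered 28 of 86 members (32.6%, 23.6% to 43.0%) against a percent called of 26.8 over all coding genes, and replicate 3 covered 20 of 86 (23.3%, 15.6% to 33.2%) against 21.8. Both intervals included their background. Outside the IDR-thresholded list, replicate 1 alone had 8 of 86 members among its strongest peaks, against 575 of 13945 coding genes. They were ND-20, ND-MLRQ, RFeSP, COX7C, COX8, ATPsynB, ATPsynF and ATPsynO. Replicate 3 alone had 0 members, against 87 coding genes. Of the members inside the IDR-thresholded list, ND-B17 was among the strongest peaks of replicate 1 alone and ND-B18 among those of replicate 3 alone. Apart from COX8 the 8 lay in the weaker part of the 5038 strongest peaks of replicate 1, at ranks from 3605 to 4759. Through ATPsynB, ATPsynF and ATPsynO, complex V stood at 7 of 15 genes in replicate 1 and at 4 in replicate 3. Of the 21 members with an IDR-thresholded peak, 16 (76.2%) ranked better in replicate 1, against 68.4% of the 3249 coding genes with a peak in all 3 lists. Their median rank was 1189 in replicate 1 and 2154 in replicate 3, against 1692 and 2057 over all coding genes. The lean toward replicate 1 was thus shared by genes in general, though the members' medians lay further apart, and its source was not tested.

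In the full lists, the members' shares were 53.5% pooled (46 genes), 64.0% in replicate 1 (55) and 44.2% in replicate 3 (38). The percent called over all coding genes was 48.2 pooled, 53.0 in replicate 1 and 45.4 in replicate 3. In both replicates 35 members (40.7%) had a promoter peak, against 38.0% of all coding genes. This counts genes, and the replicates' peaks need not lie at the same place. At this low threshold many genes have a peak, and the members lay near the background in the pooled list and in replicate 3, while the interval in replicate 1 (53.4% to 73.3%) lay just above it. Members without an IDR-thresholded peak that both full replicate lists held, beside those named above, were ND-15, ND-AGGG and ND-B8, with their better ranks at 15329, 7525 and 6532. The strongest peaks of ND-15 were at different start sites, with summits at 154833 in replicate 1 and 114684 in replicate 3 on arm 2L. For ND-AGGG the summits lay at -14 bp in replicate 1 and -244 bp in replicate 3, and for ND-B8 at -92 and -74 bp. The 65 members without a promoter peak were at a median of 6274 bp from the nearest summit of the IDR-thresholded list. The members nearest to the limit of 500 bp from outside were COX7AL2 at 541 bp, Cyt-c1 at 674 bp and ND-15 at 755 bp, and from inside COX5B at 264 bp and ND-ASHI at 251 bp, so no member's IDR-thresholded summit lay close to it from inside.

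The replicates placed the members' summits close together. The distance between the replicates' summits had a median of 18 bp (2 to 83 bp) and was within 50 bp for 17 of 21 members, against a median of 20 bp over all coding genes with a peak in both. ATPsynCF6, ATPsynC, ND-23 and ATPsyngamma were the members with the summits over 50 bp apart. At 50% reciprocal overlap, 18 of 21 members' peaks had a counterpart in both full replicate lists (85.7%), against 80.3% of the promoter peaks of all coding genes. At an overlap of 1 bp it was 21 of 21, against 98.2%. Both replicates fed the pooled list, so such presence is not independent of it. In the IDR-thresholded list the summit lay upstream of the nearest TSS of the member in 19 of 21 genes (90.5%, against 91.0% of all coding genes with a peak), with a median of -113 bp (quartiles -187 and -73), against -135 bp (-219 and -75). By the nearest TSS, the downstream summits were those of ND-24 at 91 bp and ATPsynE at 26 bp. The summits of COX5A, ND-B18, ND-B22 and ATPsyngamma lay upstream of the nearest TSS but downstream of another annotated TSS of the same gene. They were thus inside the gene though counted as upstream. By the annotation, 13 of the 21 summits were intergenic, 4 were in an intron (of ND-24, COX5A, TppII at ND-MWFE and Fum1 at ND-ASHI) and 4 were in an exon of the member itself (ND-B18, ND-B22, ATPsynE and ATPsyngamma).

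**Figure D3:**
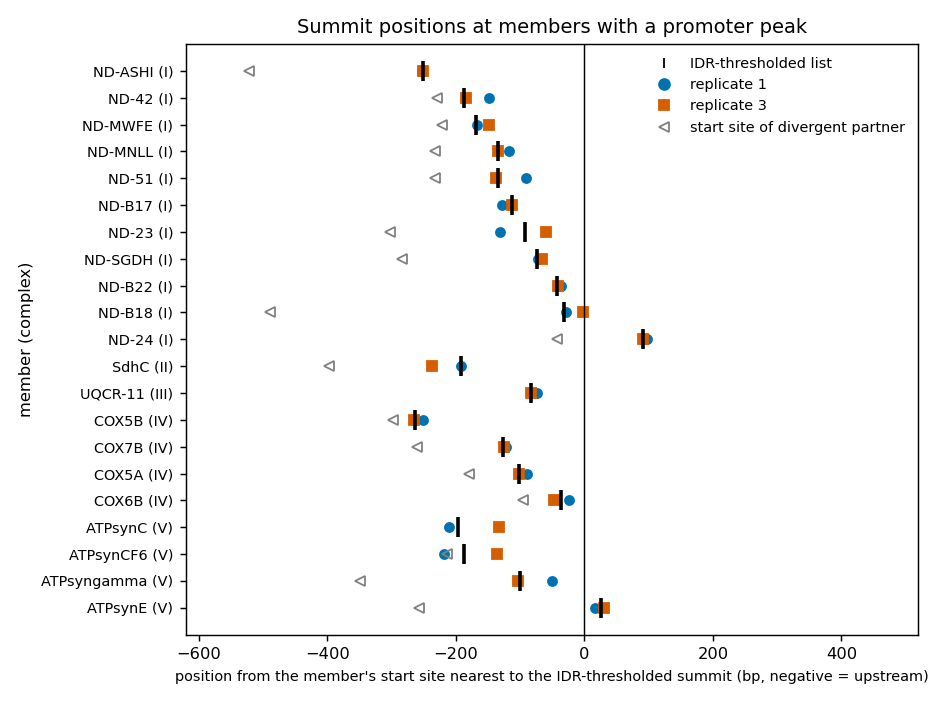
Position of each summit from the member's start site nearest to the IDR-thresholded summit, in bp with negative values upstream, for the 21 members with a peak. The bar is the IDR-thresholded summit, filled marks are the replicates' summits and the open triangle is the start site of the divergent partner gene. Most summits lie between the start sites of the pair, and ND-24 and ATPsynE lie downstream of their own nearest start site.

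Most members with a peak shared their promoter region with a gene transcribed the other way. Such a head-to-head pair was defined by diverging start sites of coding genes within 1000 bp. Of the 21 members with a peak, 17 (81.0%, 60% to 92.3%) belonged to a pair, against 2170 of 3309 coding genes with a peak (65.6%). In all 17 the same summit was also within 500 bp of the partner's TSS. Over all coding genes, the same peak served the partner in 1846 of the 2170. All 17 members had a partner TSS within 500 bp, so the distance limit itself favours such sharing. The members were in such pairs more often before any peak was considered, 44 of 86 (51.2%, 40.8% to 61.4%) against 36.2% of all coding genes. Among genes in pairs, 17 of 44 members (38.6%, 25.7% to 53.4%) had a peak, against 43.0% of 5052 coding genes. Outside pairs, 4 of 42 members (9.52%, 3.77% to 22.1%) had one, against 12.8% of 8893 coding genes. The share thus went with the pairing in members and in all genes alike, and at equal pairing the members did not lie above the background. A summit between paired start sites was counted for both genes, so the assignment itself favours a higher share in pairs.

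The duplicates were mostly outside pairs (18 of 21). Within pairs, 0 of 3 duplicates and 17 of 41 other members (41.5%, 27.8% to 56.6%) had a peak. Outside them, 0 of 18 duplicates (upper bound 17.6%) and 4 of 24 other members (16.7%, 6.68% to 35.9%) had one. With 3 duplicates in pairs, whether the gap between duplicates and other members goes with pairing was not detectable. The 4 members with a peak and no divergent partner were ND-B17, ND-B22, UQCR-11 and ATPsynC, with ranks between 3028 and 4160. A further gene property went the same way. Members with 1 annotated TSS had a peak in 7 of 52 cases (13.5%) and those with more in 14 of 34 (41.2%), against 18.7% and 37.7% of all coding genes. Here too the assignment favours this direction, since a summit near any TSS of a gene was counted.

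**Figure D4:**
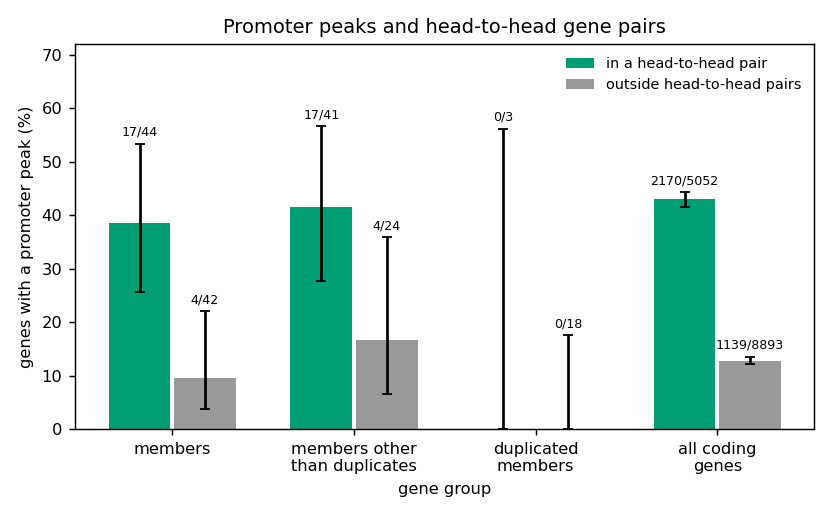
Percent of genes with a promoter peak in the IDR-thresholded list, in and outside head-to-head pairs, for members, members other than duplicates, duplicates and all coding genes. Bars start at 0, error bars are 95% Wilson intervals and the labels give genes with a peak over all genes. Shares are higher in pairs for members (17 of 44) and for all coding genes (2170 of 5052), and 0 among duplicates.

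Some partners were themselves metabolic genes. ND-ASHI faces Fum1, which encodes the fumarase of the citric acid cycle, and the shared summit lay at -251 bp from ND-ASHI and -271 bp from Fum1. ND-42 faces Cchl, a gene for the enzyme that attaches heme to cytochromes c, with the summit at -188 bp from ND-42 and -41 bp from Cchl. Other partners had unrelated known roles. ND-23 faces spn-E, a helicase of the germline small RNA pathway, and ND-24 faces corolla, a protein of the synaptonemal complex in meiosis. COX7B faces Sec3 of the exocyst, ATPsynCF6 faces Sec13 of the secretory coat and nuclear pore, and COX6B faces Rpp20, a protein of the RNase P family of enzymes. For ND-42, ND-51, ND-MNLL, ND-MWFE, COX5A, COX5B and ATPsynCF6 the summit was nearer to the partner's TSS than to the member's own, as for COX5B at -264 bp from its own TSS and -34 bp from that of IFT52. With each peak given to the nearest TSS alone, 14 of 21 members (66.7%) kept a peak, against 72.6% of all coding genes with a peak. Which gene of a pair a shared peak bears on cannot be told apart from these lists.

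Known promoter motifs were searched by exact letters on both strands, in windows of 201 bp at the summit. The nuclear respiratory gene element, in capitals in the sequences of ND-SGDH and ND-42, matched in 4 of 21 member windows (19.0%, 7.67% to 40.0%), those of ND-42, ND-B18, ND-MNLL and ND-SGDH, against 5.22% of 2509 peaks within 500 bp of a coding TSS. The interval lay above the share in all promoter peaks, and it rests on 4 genes of complex I. CAGCTG, an E-box form, matched in 5 (23.8%, 10.6% to 45.1%) against 10.4%, among them 3 matches at ND-B18, with the lower bound just above the share in all. These were 2 of 6 motifs searched. TATCGATA, the core of the DNA replication-related element (DRE), matched in 2 (9.52%) against 8.17%, and GGTCACAC, the core of promoter motif 1, in 1 (4.76%) against 3.79%. CACGTG and GAGAGAG matched in 0 windows, against 2.55% and 2.27%. The median GC content was 32.8% in the members' windows and 33.8% in all.

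In the promoters themselves, from 250 bp upstream to 50 bp downstream of the most upstream TSS, the same motifs were searched. GGTCACAC matched in 17 of 86 members (19.8%, 12.7% to 29.4%), against 7.71% of all coding genes, and this interval lay above the background. It was found in 6 of 21 members with a promoter peak (28.6%), in 11 of 65 without (16.9%) and in 1 of 21 duplicates. The nuclear respiratory gene element matched in 5 members (5.81%) against 5.18%, of which 3 were among the 21 with a promoter peak (14.3%, 4.98% to 34.6%) and 2 among the 65 without (3.08%). CAGCTG matched in 20 members (23.3%) against 17.7%, TATCGATA in 9 (10.5%) against 9.37%, CACGTG in 4 (4.65%) against 4.24% and GAGAGAG in 2 (2.33%) against 5.87%. A letter match is a description of the window and shows no binding.

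Genes that work with the respiratory chain were taken from lists made by known function. Of 8 subunit genes under other names, 4 had a promoter peak, namely levy (rank 996) and cype (1852) of complex IV, blw (1059), the alpha subunit of ATP synthase, and ox (4911) of complex III, while sun, SdhAL, SdhBL and Cyt-c1L had none. With blw, sun, levy, cype and ox added, the members' share was 27.5% of 91 genes. Of 11 electron carrier and assembly genes, 3 had one, with the assembly factor gene CIA30 at rank 45, above every subunit gene of the chain, Cyt-c-d, the cytochrome c gene used in the male germline, at 394 with its summit 368 bp downstream of the TSS, and Cox17, a copper chaperone for complex IV, at 859. Of 11 citric acid cycle genes, 6 had a peak (54.5%, 28.0% to 78.7%), led by Idh3g at rank 132, and Fum1 shares its peak with ND-ASHI. The pyruvate dehydrogenase genes had 2 of 3, Pdhb at 445 and muc at 2650. Of 10 genes that maintain or transcribe mitochondrial DNA, 4 had one, among them mtSSB at 648 and PolG2 at 2998. The regulators ewg, Ets97D and srl and the transporter and channel genes sesB, Ant2 and porin had none. Among the named genes with a peak, blw, levy, cype, ox, CIA30, Idh3g, Pdhb and PolG2 also have a divergent partner within 1000 bp. Their peaks may therefore not be theirs alone. The interval of the citric acid cycle genes lay above the background of 23.7%, that of the members included it, and the 2 intervals overlapped.

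By arm, 8 of 18 members on 3R (44.4%, 24.6% to 66.3%) and 5 of 12 on X (41.7%, 19.3% to 68.0%) had a peak, against 25.6% and 22.9% of the coding genes there. On 2R it was 1 of 17 members (5.88%, 1.05% to 27.0%), ND-MWFE, against 22.1% of 2852 coding genes, while the subunit genes blw, levy and ox, which the naming rule leaves out, have a promoter peak on that arm. The members' interval included the arm's own share on each of these 3 arms.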

How the data were processed

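Peaks were analysed from whole embryos of 1 group in 2 biological replicates. The authors deposited 4 peak lists on release 6 (dm6). Per the deposited notes they were derived from each alignment with a control. For the caller of the peaks and the IDR method, a name or version is not given in the sources used here. The signal deposited by the authors for each peak is on an undefined scale, and it served to rank peaks within a list only. The q values that the authors deposited as −log10 were not used, and the summit is the position the authors deposited within each peak. The equal length of the full lists, 30000 peaks, says nothing of depth.

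Genes and TSSs came from Ensembl release 115 (BDGP 6.54) and sequence from the RefSeq release 6 assembly. A gene took its strongest peak with a summit within 500 bp of any of its TSSs. A shared summit was counted for each gene. A peak had a counterpart in a replicate at 50% reciprocal overlap. For each replicate the 5038 strongest peaks were set beside the IDR-thresholded list, which holds as many. The name rule for duplicates would have taken in ND-MNLL, which is no duplicate, so the stem had to be another subunit's name. Exonic bases were left out of the printed sequences. Counts were made in Python 3.11.15 with pandas 2.3.3 and numpy 2.4.6, Wilson intervals came from scipy 1.17.1, and matplotlib 3.10.9 drew the figures. Assignment was tested on simulated peaks, with 200 of 200 planted promoter peaks found. No p-value was computed, since there was 1 group. In the assembly factor list, 2 of 13 names were not matched.

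Members, lists and comparisons were chosen with earlier results of these data known. Named were all members with an IDR-thresholded promoter peak, with values in each list for the 12 strongest, for complex II and for the strongest and weakest of each complex. Members that only the full replicate lists held were named up to 6 per complex. The members outside the list that replicate 1 alone held, the partners and the core subunits of complex I were named after their values were seen. The alternatives were other TSS distances, thresholds, assignments, overlaps and pair distances, leaving out a replicate or the duplicates, and adding subunits of other names.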

Additional observations from a re-analysis of the deposited data

How the results depend on the processing

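With the 2519 strongest peaks of the IDR-thresholded list, 13 members had a promoter peak against 2061 coding genes, with 7 in complex I, 0 in II, 0 in III and 2 in V. With the full pooled list these were 46 members against 6726 coding genes, with 19 in complex I, 3 in II, 7 in III, 8 in IV and 9 in V. Giving each peak to the nearest TSS left 7 genes in complex I and 2 in IV. For complex III, a TSS distance of 1000 bp or the addition of ox gave 2 genes. Leaving out a replicate gave 1 to 2 genes for complex III and 4 to 7 for complex V, the higher values in each case without replicate 3. Among all members it gave 20 to 28 genes. The other counts stayed within 1.5 times their value under each alternative, and the median summit offset ranged from -134 to -69.5 bp. No paired analysis was possible because there was 1 group. The small number of genes per complex and 2 replicates of unknown depth limit these shares.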
